A study of Mus musculus with 2 samples.

Results

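The ETS and SoxF transcription factors of endothelium, the inner lining of blood vessels, are described here together with Mef2c, a factor of another family. The 10 genes were taken by name, as the probe sets whose only gene symbol in the platform annotation is Erg, Fli1, Ets1, Ets2, Elk3, Etv2, Sox7, Sox17, Sox18 or Mef2c. They account for 26 of the 34945 probe sets with a single symbol and for 10 of 18193 genes on the array. The cells were primary endothelial cells cultured from C57/BL6 mouse embryos at E10.5 (days of gestation), in medium with 20% serum and endothelial growth factors. All cells came from embryos with 2 floxed Snail1 alleles (f/f), in which a stretch of the gene lies between target sites of the recombinase Cre. The WT group was infected with an adenovirus carrying β-galactosidase and the Snail1 KO group with one carrying Cre, and both recovered for several days before RNA extraction. Each group is 1 Affymetrix array, so no value has a replicate, no difference could be tested, and Snail1 loss and effects of Cre or of its virus cannot be told apart. The labels state neither how many embryos were pooled nor which promoter drives Cre.

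ETS proteins bind DNA through a winged helix domain that reads a GGAA core, and most endothelial enhancers carry such cores. Erg and Fli1 are close relatives that keep endothelial genes active, Etv2 acts briefly at the start of endothelial and blood development, and Ets1 and Ets2 pass on growth factor signals. The SoxF proteins Sox7, Sox17 and Sox18 bind DNA through an HMG box and act in arterial and lymphatic specification and in vessel integrity, and Mef2c is a MADS box factor of muscle and endothelium that takes part in both flow responses and sprouting. Snail1, the deleted factor, is a zinc finger repressor that binds E-boxes of the form CAGGTG.

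Snai1, the gene for Snail1, had a log2 value of 5.33 on the WT array and 3.59 on the Snail1 KO array in its single probe set. The log2 level used as a filter on dim probe sets was 3.97, the 40th percentile of mean levels, so Snai1 was above it on the WT array alone and the size of its difference rests on a dim value. The endothelial label was borne out by its markers: all 12 pan-endothelial markers passed the filter, with WT and Snail1 KO values of 11.34 and 11.46 for Cdh5 (VE-cadherin) and of 10.18 and 10.22 for Pecam1. The 12 markers had a median log2 difference, Snail1 KO minus WT, of 0.10, and their summed linear level was 36525 in WT and 39578 in Snail1 KO. Single markers were spread around that median, from -0.40 for Emcn to 1.08 for Cldn5. In bulk RNA, fewer cells of a type and less RNA per cell cannot be told apart.

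Markers of other cells were present to varying degrees. Of 12 smooth muscle and pericyte markers 10 passed the filter, with differences from -2.54 to 0.12 and a median of -0.40. The summed linear level of the 12 was 3635 in WT and 1025 in Snail1 KO. The contractile genes Acta2, at 10.94 and 9.09, and Tagln, at 10.35 and 7.80, weigh most in these sums. Myl9 was at 7.11 and 5.78, while Des, Cspg4 and Abcc9, with WT values of 5.71, 5.03 and 4.57, differed by 0.007, 0.10 and 0.12. Myh11 and Rgs5 did not pass the filter, and Pdgfrb, at 4.45 and 4.05, was near it. Of 10 fibroblast markers 6 passed, and the list summed to 4176 and 4287, with the surface protein Thy1 at 11.43 and 11.37. Single markers moved in both directions: Fbln2 was at 8.51 and 9.11, and Col3a1 at 7.33 and 6.33. Dcn was at 9.45 and 9.62, Col1a2 at 6.95 and 7.26 and Col1a1 at 4.85 and 4.97. Pdgfra, Lum, Postn and Dpt were below the filter level. Of 12 leukocyte markers 8 passed, with sums of 1030 and 870, and the pan-leukocyte marker Ptprc was below the filter level. Coro1a was at 6.80 and 4.84, Lcp1 at 7.51 and 6.21, and the brightest, Cd14, at 8.43 and 8.60. The 8 that passed had a median difference of -0.08, in a range from -1.96 to 0.18. Among them Cd68, Lyz2, Csf1r, Fcer1g and Laptm5 differed by -0.08, -0.08, -0.25, 0.02 and 0.18. Platelet markers summed to 252 and 203, with Itga2b at 6.18 and 6.05 and Pf4 at 6.02 and 4.77. Of 8 platelet markers 7 passed, with a median difference of -0.14. Gp9, Treml1 and Gata1 differed by -0.14, -0.16 and -0.34, and Gp1bb and Nfe2 by 0.07 and 0.21. Skeletal and heart muscle markers summed to 156 and 154, with Myh7 at 4.78 and 4.82. Neural markers summed to 1636 and 753, and the brightest, Stmn2, at 10.18 and 8.53, weighs most in both sums. Differences of the 6 that passed ran from -1.64 to 0.24, with a median of -0.08. Nes was at 8.09 and 7.36 and Ncam1 at 6.46 and 6.70, while Sox10, Tubb3 and Elavl3 differed by -0.02, -0.07 and -0.10. Whether cells of these other types were present, and their part in the levels of the ETS and Sox genes, was not tested.

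None of the 10 factors differed by 2-fold between the arrays, in any of their 26 probe sets. Across the array, 0.971% of the 12874 genes above the filter level were at least 2-fold higher on the Snail1 KO array and 1.84% at least 2-fold lower. Over the 23310 single-gene probe sets above that level the shares were 1.57% and 1.52%. Of the factors, 9 passed the filter. In their brightest probe sets, 6 were higher with Cre (Fli1, Ets1, Ets2, Elk3, Sox18 and Mef2c) and 3 lower (Erg, Sox7 and Sox17). The differences ran from -0.68 for Sox7 to 0.72 for Sox18 with a median of 0.36, against a median of -0.008 over all genes analysed, of which 48.9% were higher and 50.9% lower. At a 1.5-fold size, Sox18 and Ets2 were higher and Sox7 lower, a size reached by 5.06% of genes in the higher and 6.08% in the lower direction. Ets2, at 0.59, only just passed that size: it was at 0.37 when all its probe sets were averaged, the dim one included, and at 0.49 relative to the median of the pan-endothelial markers, and Sox7 was at -0.58 when averaged, also short of 1.5-fold.

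**Figure D1:**
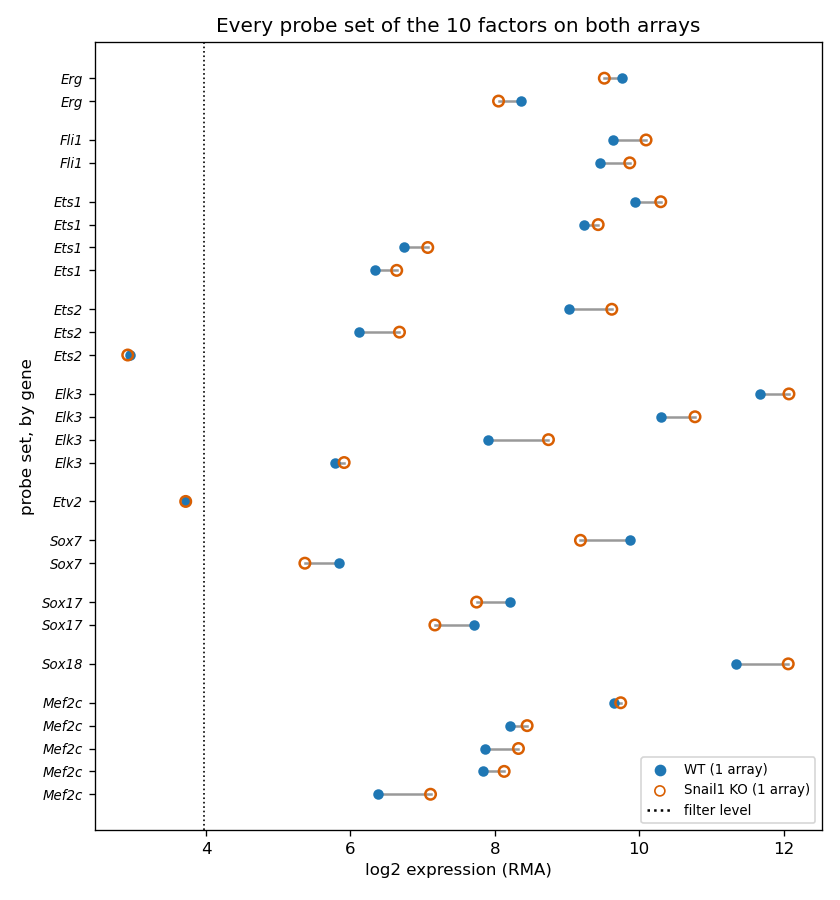
Log2 expression (x axis, RMA scale) in every probe set of the 10 factors (y axis), on the WT array (filled) and the Snail1 KO array (open); the dotted line is the filter level of 3.97. All probe sets of Erg, Sox7 and Sox17 were lower on the Snail1 KO array, and Etv2 and 1 Ets2 probe set lie left of the line.

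The probe sets of a factor pointed the same way. Among the 8 factors with more than 1 probe set above the filter level, all 8 had a single sign in every such probe set. Of the 24 probe sets, Sox18's included, 18 were higher with Cre and 6 lower, against 52.5% higher and 47.2% lower among all 23310 probe sets analysed. Probe sets of 1 gene are not separate observations, and Mef2c, Elk3 and Ets1 supplied 5, 4 and 4 of those higher. By gene, 6 were higher and 3 lower. For comparison, of genes with 2 analysed probe sets 66.7% had a single sign in both, of those with 4 it was 36%, and of those with 5 it was 34%. These shares cover all genes above the filter level and were not matched to the levels of the factors. The log2 differences of 2 probe sets of 1 gene differed with an SD of 0.42 over the array, and the robust SD of the difference over all genes analysed was 0.32. Both are yardsticks of probe error and of spread among genes, not of variation between cultures. As a mark of size only, the brightest probe sets of Erg, Ets1, Elk3 and Mef2c lay within 0.42 of zero, and those of Fli1, Ets2, Sox7, Sox17 and Sox18 outside it. The SD of 0.42 is that of the gap between 2 probe sets, not the error of 1 difference about zero.

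**Figure D2:**
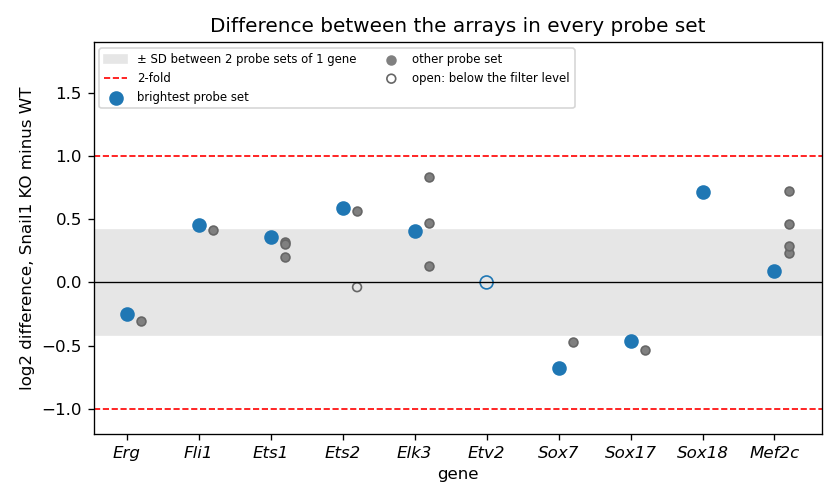
Log2 difference between the single Snail1 KO and WT arrays (y axis) for every probe set of each gene (x axis). Large points are brightest probe sets and small ones the others, open points are below the filter level, the grey band is the SD of 0.42 between 2 probe sets of 1 gene, and dashed lines mark 2-fold, which no point reaches.

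RefSeq promoter windows were matched for 5 of the factors, Erg, Ets2, Elk3, Etv2 and Mef2c, with 9 annotated starts among them; Fli1, Ets1, Sox7, Sox17 and Sox18 had no match. In the 250 bases before each start 3 motifs were searched on both strands, each as written and as its reverse complement: the ETS core GGAA, the Snail E-box with the letters CAGGTG, and the SOX sequence with the letters AACAAT. The matches did not overlap. Of the 32851 windows in the table, 93.4% held the ETS core, 17.2% the E-box and 9.42% the SOX sequence. Among the 9 windows of these factors, 8 held an ETS core, 1 held the E-box and 1 the SOX sequence. Both of the latter fell in the same window of Erg. The E-box lies 217 to 212 bases before that start and the SOX match 120 to 115 bases before it. This is a description of letters in a short window, and binding was not measured. Of the windows below, that of Erg is shown for these matches, that of Mef2c for its 9 ETS cores (the median over all windows was 3, and the window of the dim gene Etv2 held 10), and those of Ets2 and Elk3, higher with Cre, as GC-rich windows (71.6% and 67.2% GC) with 1 and 2 cores. Sequences are from RefSeq on build GRCm38.p6, read 5′ to 3′ along the gene, with every motif match in capitals. The Erg window (chr16:95459349-95459598, minus strand) precedes an internal start and lies wholly inside the annotated span of the gene. Those of Ets2 (chr16:95702157-95702406, plus strand) and Elk3 (chr10:93311160-93311409, minus strand) lie outside theirs, and that of Mef2c (chr13:83503784-83504033, plus strand) overlaps its gene by 17 bases.
Erg: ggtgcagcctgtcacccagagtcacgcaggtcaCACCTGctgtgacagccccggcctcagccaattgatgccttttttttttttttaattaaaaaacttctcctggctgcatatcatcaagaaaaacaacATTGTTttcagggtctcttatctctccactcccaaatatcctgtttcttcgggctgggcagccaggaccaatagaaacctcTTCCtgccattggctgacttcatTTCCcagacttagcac
Mef2c: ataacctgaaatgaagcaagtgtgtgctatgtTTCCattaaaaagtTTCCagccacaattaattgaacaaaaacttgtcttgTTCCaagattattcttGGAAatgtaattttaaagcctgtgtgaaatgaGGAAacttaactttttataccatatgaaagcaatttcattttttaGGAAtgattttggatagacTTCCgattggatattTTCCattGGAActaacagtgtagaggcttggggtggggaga
Ets2: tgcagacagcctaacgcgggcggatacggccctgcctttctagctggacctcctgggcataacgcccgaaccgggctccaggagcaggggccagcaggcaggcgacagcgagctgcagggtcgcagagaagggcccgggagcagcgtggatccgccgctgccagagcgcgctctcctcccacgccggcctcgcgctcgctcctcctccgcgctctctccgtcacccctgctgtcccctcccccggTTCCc
Elk3: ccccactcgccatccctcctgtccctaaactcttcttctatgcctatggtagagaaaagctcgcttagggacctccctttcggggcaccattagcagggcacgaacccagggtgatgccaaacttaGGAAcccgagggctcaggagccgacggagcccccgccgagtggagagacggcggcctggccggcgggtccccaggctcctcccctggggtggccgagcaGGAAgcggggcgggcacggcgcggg

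**Figure D3:**
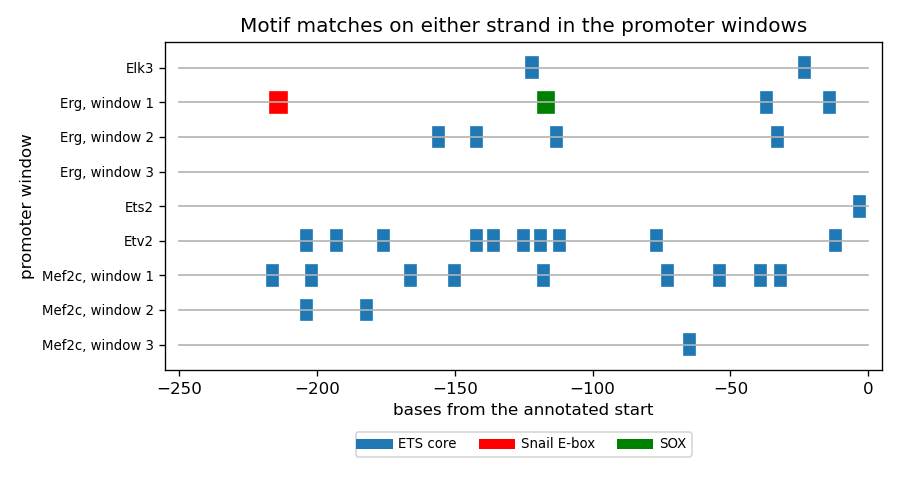
Positions of ETS core, Snail E-box and SOX matches on either strand (coloured boxes) in the 9 RefSeq promoter windows (y axis), in bases before the annotated start (x axis). Where a gene has several starts, windows are numbered by genome coordinate. The E-box and the SOX match lie in 1 Erg window, and another Erg window has no match.

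Erg and Fli1, the related pair that maintains endothelial identity, lay on opposite sides of zero. Erg was at 9.77 on the WT and 9.52 on the Snail1 KO array in its brightest probe set (1440244_at), and at 8.36 and 8.05 in the other (1425370_a_at). Erg was therefore 1.19-fold and 1.24-fold lower with Cre. Among probe sets above the filter level, 21.1% and 16.9% were at least this far lower, so differences of this size were common. Fli1 was at 9.64 on the WT and 10.09 on the Snail1 KO array (1422024_at) and at 9.45 and 9.87 (1433512_at), 1.37-fold and 1.34-fold higher. A difference as high or higher was found in 11.6% and 13.6% of probe sets. The log2 difference of Fli1 exceeded that of Erg by 0.71 in the brightest probe sets, while the probe sets within each gene differed by 0.06 for Erg and 0.04 for Fli1. Without a second culture, this contrast has no replicate check.

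Ets1 and Ets2, which are phosphorylated in response to growth factors, were both higher on the Snail1 KO array. Ets1 was at 9.94 on the WT and 10.30 on the Snail1 KO array in its brightest probe set (1452163_at), 1.28-fold higher. Its other 3 probe sets, with WT values of 9.23, 6.75 and 6.33, were at 9.43, 7.07 and 6.64 in Snail1 KO. The 4 differences spanned 0.20 to 0.36, so bright and dim probe sets of Ets1 gave similar sizes. Ets2 was at 9.03 and 9.62 (1416268_at), a log2 difference of 0.59, and at 6.12 and 6.68 in a further probe set (1447685_x_at), a difference of 0.56. A difference as high as these was found in 7.07% and 7.78% of probe sets. A last Ets2 probe set was below the filter level, at 2.95 and 2.92, and gives no usable difference. Names ending in _x_at or _s_at mark probe sets whose probes may bind other transcripts, among them 2 of the 3 for Ets2.

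On the RefSeq gene map the ETS genes form neighbouring pairs, Fli1 next to Ets1 on chromosome 9 and Erg next to Ets2 on chromosome 16, with 0 protein-coding genes between them in either pair. The Fli1 and Ets1 neighbours were both higher with Cre, with log2 differences of 0.46 and 0.36. The Erg and Ets2 neighbours differed in sign, and the difference of Ets2 exceeded that of Erg by 0.84.

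Elk3, a ternary complex factor that joins serum response factor on promoters and can repress transcription, was higher in all 4 of its probe sets. It was at 11.67 on the WT and 12.07 on the Snail1 KO array in the brightest (1448797_at), 1.33-fold higher. The next brightest was at 10.30 and 10.77 (1.38-fold), and another (1417662_at) at 7.91 and 8.74. The last, at 5.78 and 5.91, differed by 1.09-fold. The probe set 1417662_at, with a log2 difference of 0.83, had the largest difference of all 26, and 2.76% of probe sets were as far or farther in that direction. The size of the Elk3 difference thus depended on the probe set, over a range of 0.70 log2 units.

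Etv2, which starts the endothelial programme in the early embryo and is then switched off, was at 3.72 on both arrays in its single probe set (1421773_at), below the filter level. The deposited values of Etv2 were equal to all digits, as were those of 283 of the 45037 probe sets that are not array controls (0.628%). No statement on a difference can be made for Etv2.

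The SoxF genes split, with Sox7 and Sox17 lower and Sox18 higher on the Snail1 KO array. Sox7 was at 9.87 on the WT and 9.19 on the Snail1 KO array (1416564_at), 1.60-fold lower, and at 5.84 and 5.37 in a dimmer probe set (1432495_at), 1.39-fold lower. Only 3.86% of probe sets were as far or farther in the lower direction than the brighter Sox7 probe set, and 8.66% than the dimmer. Sox17, the SoxF factor best known for arterial identity, was at 8.21 and 7.75 (1429177_x_at) and at 7.71 and 7.17 (1421657_a_at). Its differences were -0.46 and -0.54, reached in that direction by 9.14% and 6.57% of probe sets. Leaving out the probe set whose probes may bind other transcripts therefore gave a slightly larger difference for Sox17.

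Sox18, which acts upstream of Prox1 in lymphatic specification, was at 11.34 on the WT and 12.06 on the Snail1 KO array in its single probe set (1449135_at), 1.65-fold higher. A difference as high or higher was found in 4.33% of probe sets. The log2 difference of Sox18 exceeded that of Sox7 by 1.40 and that of Sox17 by 1.18, the widest gaps computed between factors of 1 family here. Sox18 has no other probe set to compare, so its value rests on 1 measurement.

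Mef2c was higher in all 5 of its probe sets, by sizes that differed. The brightest (1421027_a_at) was at 9.65 on the WT and 9.74 on the Snail1 KO array, 1.06-fold higher. The dimmest (1451507_at) was at 6.39 and 7.11, 1.65-fold higher. The other 3 were at 8.21, 7.86 and 7.84 in WT and at 8.45, 8.33 and 8.13 in Snail1 KO. The mean difference over the 5 probe sets was 0.36, against 0.09 in the brightest. Relative to the median of the pan-endothelial markers the brightest Mef2c probe set was at -0.006, the single factor that changed sign under any scaling tried.

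Relatives of the factors gave no 2-fold difference in their brightest probe sets, while Etv5, Sox4, Sox11 and Mef2a had another analysed probe set at least 2-fold higher. Of 20 other ETS genes, 13 were analysed, with 6 higher, 7 lower and a median difference of -0.05, which was 0.08 when each gene's probe sets were averaged. Among all genes analysed, 48.9% were higher and 50.9% lower. Gabpa, a factor of housekeeping and mitochondrial genes, was at 9.28 on the WT and 9.99 on the Snail1 KO array, although its analysed probe sets ran from -0.06 to 0.71. Etv5 was at 6.48 and 6.81, and its 3 analysed probe sets ran from 0.23 to 1.17. Elf1 was at 8.67 and 8.03, and lower in both of its probe sets. Spi1, the blood ETS factor, was at 4.63 and 4.37, near the filter level. Of 17 other Sox genes, 11 were analysed, with a median of -0.02 and a range of -0.16 to 0.34, led by Sox12 (0.34) and Sox5 (0.27). Sox4 was at 11.02 and 11.20 in its brightest probe set, and its 6 analysed probe sets ran from -0.43 to 1.76. Sox11 was at 5.14 and 5.24, with probe sets from 0.10 to 1.38. The other Mef2 genes and the class IIa histone deacetylases that bind and repress Mef2 proteins had a median of -0.02 over 7 genes. The deacetylase Hdac9 was at 5.77 and 5.26, 1.42-fold lower, and Hdac5 differed by 0.33. Mef2b was at 5.21 and 4.82, a difference of -0.40 in its single analysed probe set. Mef2d differed by 0.30 in the brightest of its 3 probe sets, which ran from -0.09 to 0.30. Mef2a differed by 0.18 in its brightest probe set, the lowest of its 6, and by 1.63 in the highest.

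Partners of these proteins stayed within 2-fold in every analysed probe set. Over 13 analysed partners (serum response factor and its coactivators, histone acetyltransferases, Runx, AP-1, Forkhead and kinase genes) the median was 0.04, and it was -0.05 when probe sets were averaged. Fos, an AP-1 subunit and a classical target of ternary complex factors, was at 9.62 and 8.87, 1.68-fold lower. Srf, the DNA-binding partner of Elk3, was at 7.83 and 7.48, 1.28-fold lower.

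Other transcription factors of endothelium gave 1 gene in each direction past 2-fold, out of 22 analysed, with a median of 0.16. The shares over all genes analysed were 0.971% higher and 1.84% lower. Prox1, the lymphatic master regulator, was at 9.57 on the WT and 10.63 on the Snail1 KO array, 2.08-fold higher, and its 3 probe sets differed by 1.02 to 1.47. Relative to the median of the pan-endothelial markers the difference of the brightest Prox1 probe set was 0.96, under 2-fold. Mecom, a zinc finger factor of arterial and blood stem cells, was at 8.91 and 7.49, 2.69-fold lower in its single analysed probe set. Tal1, at 10.02 and 10.13, and Gata2, at 9.25 and 9.18, which act with ETS factors in blood and endothelial enhancers, differed by 0.11 and -0.06.

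Genes linked to ETS and SoxF control by earlier work, listed from general knowledge, are set beside the factors as descriptions. Of 28 endothelial genes with ETS or Forkhead and ETS elements, 27 were analysed. Their median difference was 0.07, with 16 higher and 11 lower, 1 of them 2-fold higher and 3 of them 2-fold lower. Those past 2-fold were the tight junction gene Cldn5, at 11.36 on the WT and 12.44 on the Snail1 KO array, and the tip cell genes Esm1 (8.68 and 6.13), Cd34 (10.09 and 8.48) and Apln (9.87 and 8.41). Of 18 genes with SoxF or Mef2 elements, all were analysed, 14 were higher and 4 lower, and the median was 0.44. Relative to the median of the pan-endothelial markers it was 0.35, and the median of the list with ETS elements was -0.03. The 12874 genes above the filter level had a median of -0.008, with 48.9% of them higher and 50.9% lower. Past 2-fold, the shares of those genes were 0.971% upward and 1.84% downward. Dll4, the arterial Notch ligand, was at 6.43 and 7.56, and higher by 0.83 in a further probe set. Dll4, Prox1 and Cldn5 were at least 2-fold higher, Prox1 and Cldn5 not so relative to the pan-endothelial markers (0.96 and 0.98), and, going by brightest probe sets, no gene of this list was 2-fold lower. Vcam1, a leukocyte adhesion molecule, was at 6.33 and 5.65 in its brightest, but its 3 analysed probe sets ran from -2.47 to -0.68. The lists share genes, among them Cldn5, Kdr, Tek and Gja4, so they are not separate observations. All 12 pan-endothelial markers used for scaling, Cldn5 included, are also in the list with ETS elements. Links between a factor and the listed genes were not tested.

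**Figure D4:**
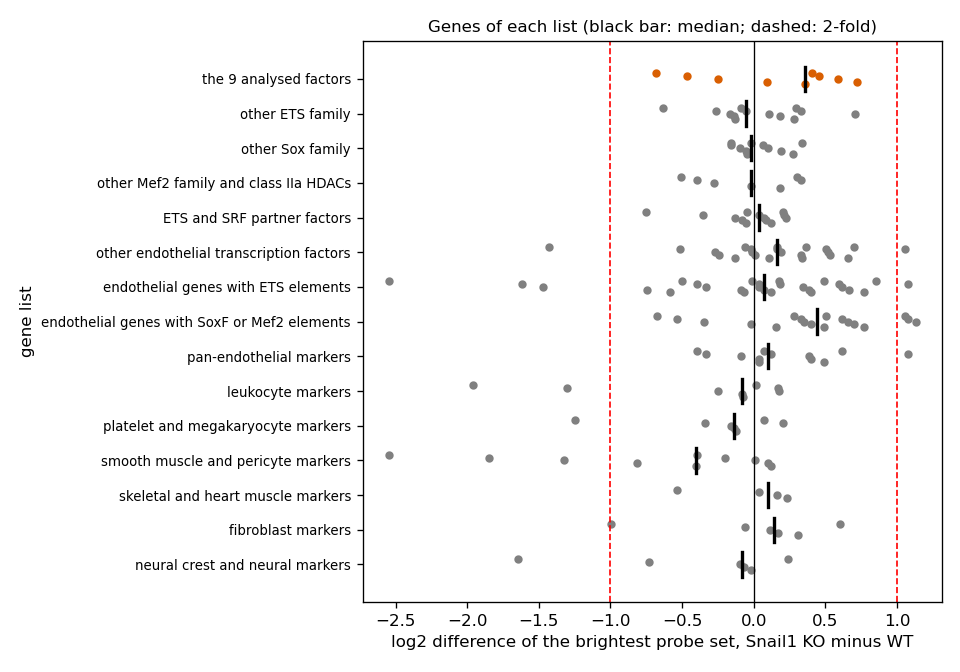
Log2 difference of the brightest probe set between the single Snail1 KO and WT arrays (x axis) for each gene above the filter level, by gene list (y axis), with a black bar at the list median and dashed lines at 2-fold. The 9 analysed factors lie between -0.68 and 0.72, while smooth muscle and tip cell genes reach below -2.5.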

How the data were processed

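The deposited values are log2 expression levels, 1 for each probe set on each array. The authors computed them with affy and RMA, as named in the submitters' processing notes, which give no versions. RMA makes the arrays' distributions alike, so a change of total mRNA cannot be seen, and it compresses differences of dim probe sets. The medians were 4.66 (WT) and 4.70 (Snail1 KO). Scanner data and detection calls were not used here, so signal over background is unknown, and the number of arrays limits the precision.

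Of 45101 probe sets, 64 are array controls, 34945 had 1 symbol in GEO's platform annotation, 932 several and 9160 none; only those with 1 symbol were used. List genes with older symbols were matched through a RefSeq table (GRCm38.p6), and those with no match were left out. The probe set with the highest mean stood for its gene, which was analysed if that mean exceeded the 40th percentile (3.97). Differences are Snail1 KO minus WT, counted at 2-fold, with Python 3.11.15 and pandas 2.3.3; the count was tested on simulated data. The members, the 14 lists and the search motifs were chosen with earlier results of these data known. The rule for named genes took the members, Snai1, Cdh5, Pecam1, list genes past 2-fold or, in lists with none, up to 4 with the largest differences, and the brightest marker of each other cell type. Spi1, Mef2a, Sox4, Sox11, Vcam1, Tal1, Gata2, cell type markers named outside this rule (the dim ones included) and the promoters printed were chosen after their values were seen. Alternatives were the probe set rule, the fold size, the filter and centring.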

Additional observations from a re-analysis of the deposited data

How the results depend on the processing

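With 1 array per group, none could be left out. No paired analysis was possible because the groups share fewer than 2 replicate numbers. The count of factors past 2-fold was 0 with the mean of all probe sets, without probe sets that may bind other transcripts, with no filter, with the filter at the 60th percentile and under each centring, as it was at 3-fold. At 1.5-fold it was 3. Of the genes in the 7 lists of relatives, partners and linked genes, 7 were past 2-fold, 19 past 1.5-fold and 2 past 3-fold. With probe sets averaged 6 of 95 list genes were past 2-fold, as Dll4 and Mecom dropped out and Vcam1 (-1.49) entered. Relative to the pan-endothelial markers 5 of 101 were, without Prox1 and Cldn5. Of the 9 analysed factors, 6 were higher with Cre in each of these settings except relative to the pan-endothelial markers, where 5 were. That scaling and the one on the genes analysed were chosen after seeing the data. Centring on all probe sets other than controls moved nothing, since their median difference was 0. The Snai1 difference ranged from -1.84 to -1.73. List medians near zero changed sign with the probe set rule or the filter, for the other ETS, Sox and Mef2 genes and the partner factors, and the cause was not tested. Of the list medians, those of smooth muscle and neural markers moved by more than the probe set SD of 0.42, with the filter at the 60th percentile, which left 4 and 3 genes (medians of -1.59 and -0.73).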
